A study of Bos taurus with 8 samples.

Results

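Gene expression in cultured bovine retinal glia given the HIV-1 protein TAT was compared with that in the same kind of culture given the HIV-1 envelope protein gp120, array against array within each replicate letter. The 6 arrays compared carry the letters A, B and C under each protein and form 3 same-letter pairs, out of 8 arrays in the series. The other 2 are the untreated controls A and B, whose values stand beside the pairs where they help. The arrays were chosen by their sample titles alone. According to the labels, the cells are primary Müller glia from bovine eyes kept in DMEM for 18 to 21 days, and the TAT and gp120 cultures received 100 ng/ml of TAT or 60 ng/ml of gp120 for 24 h. The treatment text is the same for every sample, controls included, and the extraction text speaks of astrocytes. No allele, transgene or cell line is named. The labels do not say whether the letters stand for separate cultures or animals, so every error given here speaks only of these samples. Each sample was read on 1 array of a bovine 1-colour Agilent design, and a level is the log2 signal of a gene's probe minus the 75th percentile of its array. A level of 0 is thus the brightness of that percentile, and a difference of 1 is a fold of 2.

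Müller glia span the retina, take up glutamate, recycle it to glutamine and buffer potassium around neurons. When they become reactive they are known to make cytokines, growth factors and extracellular matrix. TAT is the viral transactivator, which is released from infected cells and enters others, where it can act on transcription elongation. The envelope subunit gp120 binds CD4 and chemokine receptors such as CXCR4 at the cell surface.

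Of the 10 Müller glia markers listed for this work, GLUL (glutamine synthetase), SLC1A3 (a glutamate transporter), VIM (an intermediate filament) and AQP4 (a water channel) were well above background on all 6 arrays, but RLBP1 (retinal visual cycle), GFAP (glial filament), KCNJ10 (a potassium channel) and CA14 (a carbonic anhydrase) were above it on at most 1, and SOX2 (a glial and stem cell factor) on 4. All 9 listed microglia and macrophage markers were measured on all 6 arrays, with a summed level of 8.78 to 8.98 on the TAT arrays and 8.57 to 9.02 on the gp120 arrays. Fibroblast markers (6 of 7 measured) summed to 7.11 to 7.73 with TAT and 6.8 to 7.06 with gp120, and all 5 mural markers to 7.31 to 8.12 and 7.0 to 8.34. The endothelial marker CDH5, the T cell marker CD3E and the melanin enzyme TYR were above background on none of the 6 arrays. In such mixed RNA, fewer cells of a type and less RNA per cell cannot be told apart, and the part of the cell makeup in the results below was not tested.

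The TAT and gp120 arrays of one letter share a row of the slide (row 1 for A, row 2 for B and C), so slide row does not differ within a pair. Control A lies in the row of its letter, but control B lies in row 1, so that its comparisons with TAT B and gp120 B cross slide rows. Both arrays of pair A were read in the same scan, whereas the gp120 arrays of letters B and C came from another scan, at a detector voltage of 471 in place of 431. Within pairs B and C the scan and the protein therefore cannot be told apart. These 2 gp120 arrays also had the fewest spots well above background (56.76% and 55.46%, against 59.14% to 64.62% on the other 6), with 0 saturated spots on any array. A principal component with 52.3% of the variance over the 6 arrays set the 2 letter A arrays apart, and 1417 genes differed between letters past a limma adjusted p of 0.05 with the protein in the fit.

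A gene is read here through its brightest probe, and the probes below show why that choice bears on the results. Each line gives the first 30 bases of a 60-base probe, as the scanner files hold it, for genes with several probes that were either alike or unlike across the 3 pairs. Capitals mark bases that 2 stretches of a gene have in common, so those probes are not independent.
COL4A2 probe 1: tggtgcttattcttaacttattacctcaag
COL4A2 probe 2: tgccactactacgcgaacaaatacagcttc
COL4A2 probe 3: gccgttcattgagtgcaacggggcccgcgg
CD1B probe 1: attggcttgatacttgtggcaataataata
CD1B probe 2: TCTCTGATATCAttgagagacttctctcag
CD1B probe 3: cgactcagtatcaaggcaTCTCTGATATCA
TLR8 probe 1: gagggcttgttttggcaaagtctgaaaaat
TLR8 probe 2: caaaaactggaattttaaaacggcattcta
COL8A1 probe 1: gactgtacgccgggcagtacgtccactcct
COL8A1 probe 2: ggtgactgttctcaaatattttacagataa
COL8A1 probe 4: tccaggaattggaaagccaggtatgcccgg

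In the build named in the file headers, HGSC Btau_3.1, the 3 COL4A2 probes lie on the plus strand at chr12:83238935-83238994, chr12:83238717-83238776 and chr12:83238683-83238742, so probes 2 and 3 overlap. All 3 were higher with TAT in every pair, by 0.56, 1.05 and 1.01 in pairs A, B and C on probe 1, by 0.57, 0.98 and 0.88 on probe 2 and by 0.65, 0.98 and 1.03 on probe 3. The 3 CD1B probes were lower with TAT in every pair, by -1.07, -0.73 and -0.79 on the brightest and by -1.32, -1.31 and -1.3 on probe 2. The TLR8 probes, on the minus strand at chrX:82015245-82015304 and chrX:82015423-82015482, were lower by -0.66, -1.01 and -0.82 and by -0.41, -0.77 and -0.77. COL8A1, chosen as an example after its values were seen, went the other way. Its brightest probe, at chr1:45108312-45108371 on the plus strand, read 0.68, 0.88 and 1.51, but probe 2, at chr1:45110911-45110970, read 0.86, -0.15 and 0.43 and probe 4, at chr1:45106597-45106656, read 1.01, -0.98 and -0.29. The sign held on all 5 COL8A1 probes in pair A and on 1 of 5 in all 3 pairs.

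No gene differed between TAT and gp120 past the threshold. Of 10993 genes tested with limma, with the letter as a block, 0 (0.0%) had an adjusted p under 0.05, the smallest being 0.472, and 1059 had an unadjusted p under 0.05 (547 higher and 512 lower with TAT). The median 95% interval of a difference reached 0.393 to either side, with 2 residual degrees of freedom. This interval and every SE given below are moderated by limma, with 3.7 prior degrees of freedom. They draw on the variance of all genes tested, not only on the spread of a gene's 3 differences. What follows is therefore a description of genes that lay on the same side in each pair. In all 3 pairs 1455 genes (13.2%) were higher with TAT and 2132 (19.4%) were lower, so 40.6% of the genes with 1 direction were on the TAT side. In the value table deposited by the authors that share was 57.8%. A difference of at least 0.5 (1.41-fold) in each of the 3 pairs was reached by 60 genes (0.546%) higher and 33 genes (0.3%) lower with TAT. At the border, PLSCR4 was just inside with a smallest difference of 0.5 and COL4A5 just outside with 0.4996, and on the lower side CEP41 stood at 0.5 and THEMIS2 at 0.4995.

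**Figure D1:**
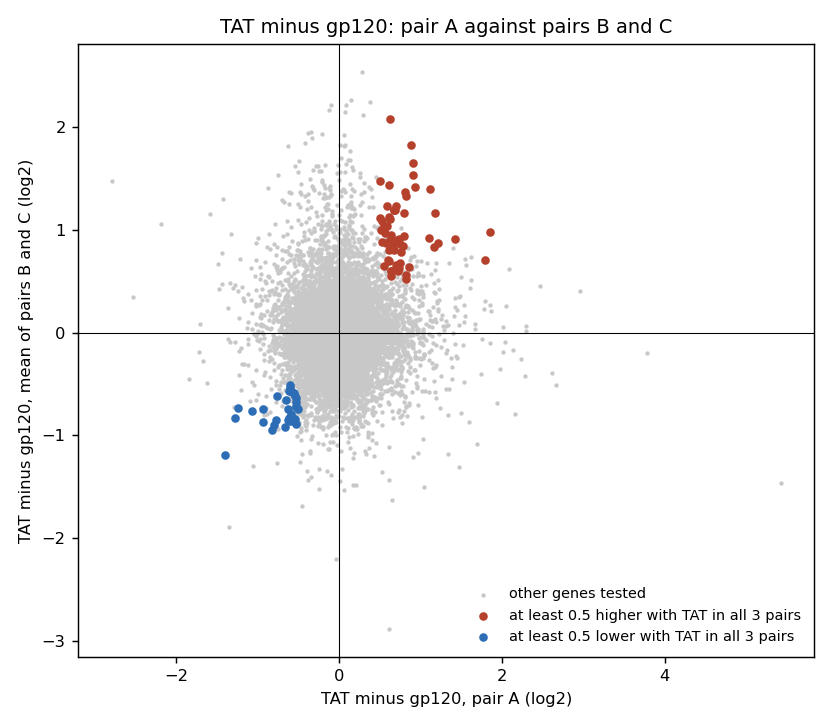
TAT minus gp120 on the log2 scale for each of 10993 genes, with pair A on the x axis and the mean of pairs B and C on the y axis. Red and blue points are the 60 genes at least 0.5 higher and the 33 at least 0.5 lower with TAT in all 3 pairs. The grey cloud of the other genes is round, with a correlation across genes of -0.09 between pairs A and B and 0.14 between A and C.

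The pairs were alike only in part. Across genes, which are not independent replicates, the differences correlated at -0.09 between pairs A and B, 0.14 between A and C and 0.36 between B and C, and pairs B and C have in common that their gp120 arrays came from the other scan. Of the 145 genes at least 0.5 higher with TAT in pairs A and B, 79.3% were higher in pair C too, where 44.4% of all genes were, and of the 90 lower ones 78.9% were lower in C, against 55.6% of all genes. Of 156 genes higher in A and C, 60.9% were higher in B (all genes 46.7%), and of 109 lower ones 59.6% were lower (all genes 53.3%). Of 469 genes higher in B and C, 53.3% were higher in A, where 47.7% of all genes were. Of 302 genes lower in B and C, 60.9% were lower in A, where 52.3% of all genes were. Without the letter A arrays limma called 98 genes (91 higher and 7 lower with TAT), and 49 and 4 of these had the same direction in pair A.

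Differences in pairs B and C also varied with the base composition of the probes, and those in pair A did so less. Genes were put into 5 groups by the GC share of their probes. In the most AT-rich group (GC share 18.3% to 35.0%) the median difference was -0.009 in pair A, 0.058 in pair B and 0.058 in pair C. In the group with 45.0% to 48.3% GC it was -0.024, -0.11 and -0.106, and in the GC-richest group (up to 90.0%) -0.011, -0.076 and -0.137. From the most AT-rich to the GC-richest, the 5 groups held 2628, 1595, 1978, 2606 and 2186 genes. Of the 60 genes higher with TAT, 14, 16, 17, 9 and 4 fell in them, and of the 33 lower genes 4, 2, 7, 10 and 10. The median GC share was 39.2% for the 60 genes, 45.0% for the 33 and 41.7% for all genes. When each array's median departure within a GC group was taken off, all 93 genes kept their direction in the 3 pairs and 53 and 24 still differed by at least 0.5. Dim genes were also common among them, since 19 of the 60 and 20 of the 33 were in the dimmest of 5 groups by level and 3 and 1 in the brightest.

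**Figure D2:**
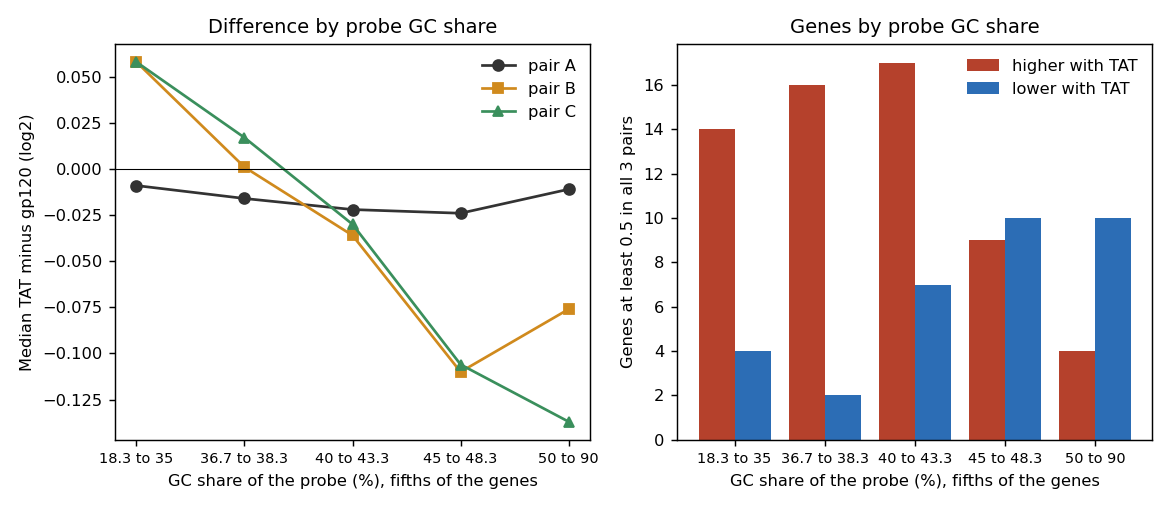
Left, median TAT minus gp120 (log2) in each pair for 5 groups of genes by the GC share of their probe; right, the number of genes at least 0.5 higher (red) or lower (blue) with TAT in all 3 pairs in the same groups. Pair A stays between -0.024 and -0.009, while pairs B and C go from 0.058 in the most AT-rich group to -0.11 and -0.106 in the fourth and -0.076 and -0.137 in the GC-richest.

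The 12 named genes with the largest smallest difference on the TAT side were CSNK1A1, MYH10, EDIL3, RHOBTB3, MMP23, ADAM12, COL8A2, ITGA8, ITGA1, PRRX1, SNAI2 and IRX5. ADAM12, a membrane protease of mesenchymal cells, had levels, in the order of the letters, of 0.33, -0.03 and -0.26 with TAT and of -0.55, -1.55 and -2.39 with gp120. Every TAT array was above every gp120 array, and the mean difference was 1.51 (moderated SE 0.25, SD of the differences 0.62, n = 3 pairs), a 2.85-fold higher signal. EDIL3, a secreted integrin ligand, read -0.73, -1.95 and -1.64 with TAT and -1.64, -3.31 and -3.35 with gp120 (mean 1.32, SE 0.19). Its groups overlapped, since gp120 A was above TAT B. COL8A2, a short-chain collagen of basement membranes, was dim throughout, at -3.36, -2.73 and -2.53 with TAT and -4.48, -3.6 and -4.45 with gp120 (mean 1.30, SE 0.23).

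Both integrin alpha chains among these genes pair with the beta 1 chain and bind matrix. ITGA8, the partner that binds RGD sequences, was bright, at 3.5, 3.84 and 3.77 with TAT against 2.67, 2.69 and 2.27 with gp120, with no overlap and a mean difference of 1.16 (SE 0.18). Its 2 probes had the same direction in every pair. The collagen receptor chain ITGA1 read 0.13, 0.49 and 0.69 against -0.67, -0.72 and -0.84 (mean 1.18, SE 0.18), but its other probe read 1.03, -0.07 and 0.29 across the pairs. ITGB1, the beta 1 chain itself, showed differences of 0.16, -0.25 and -0.02.

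PRRX1, a homeobox factor of limb and craniofacial mesenchyme, had levels of 1.83, 2.31 and 2.33 with TAT and 1.04, 0.99 and 1.33 with gp120 (mean 1.04, SE 0.16). On its dimmer second probe the differences were 0.14, -0.63 and 0.38. SNAI2, a zinc finger repressor of epithelial genes, lay at -0.11, -0.07 and -0.06 against -0.91, -1.21 and -0.81 (mean 0.89, SE 0.15), and its 2 probes went the same way in every pair. The homeobox factor IRX5 was dim, with differences of 1.22, 1.01 and 0.73. MYH10, a non-muscle myosin heavy chain, differed by 0.94, 1.08 and 1.75 on its brighter probe and by 0.19, -0.53 and 0.22 on the other, whereas RHOBTB3, a protein with BTB domains, was higher with TAT on both of its probes (0.91, 1.34 and 1.96 on the brighter). CSNK1A1, casein kinase 1 alpha, differed by 1.18, 1.36 and 0.97, and MMP23, a small metalloprotease, by 1.42, 0.95 and 0.88, each on 1 probe.

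**Figure D3:**
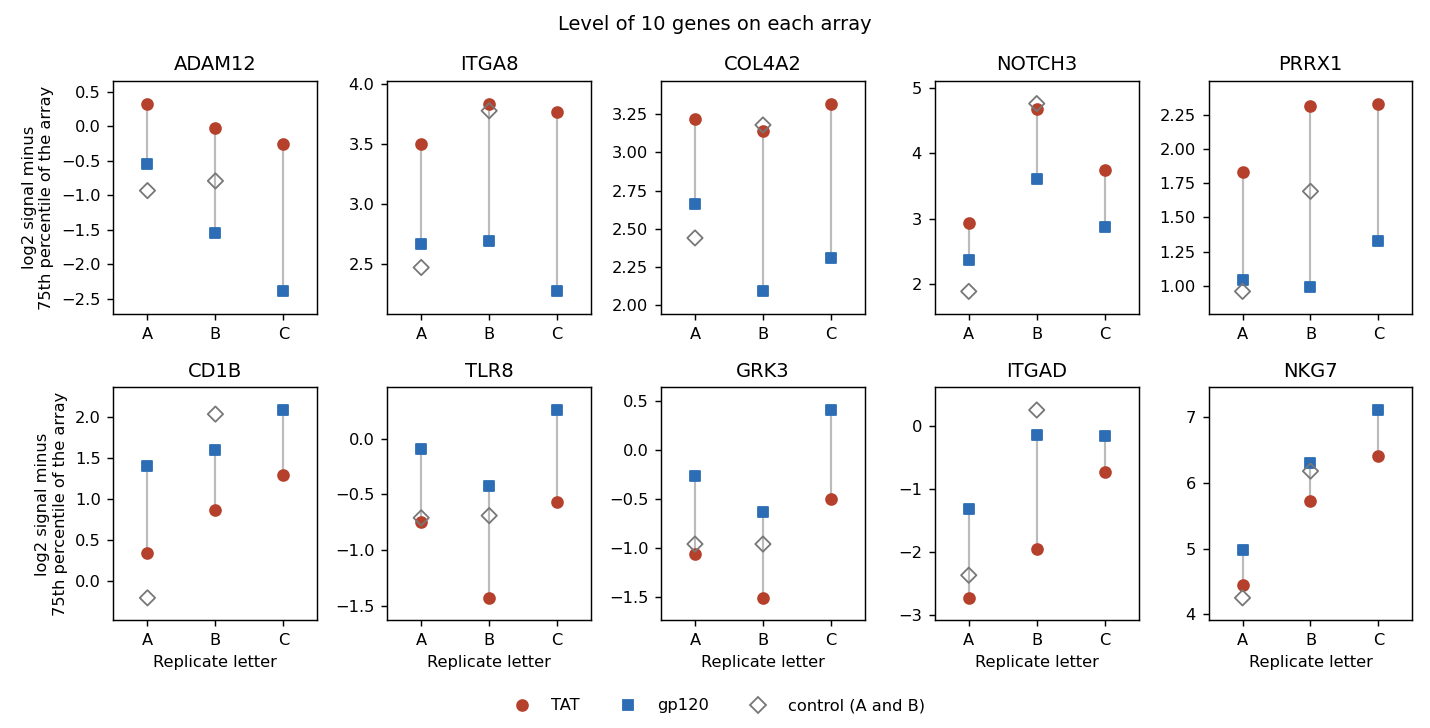
Level (log2 signal minus the array's 75th percentile) of 10 genes on each array, by replicate letter, with TAT as circles, gp120 as squares, controls A and B as open diamonds and a line joining each same-letter pair. In the top row TAT lies above gp120 in all 3 pairs (ITGA8 differs by 0.82, 1.15 and 1.51) and in the bottom row below it (CD1B by -1.07, -0.73 and -0.79), while the control lies now near one protein, now near the other.

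Extracellular matrix genes were higher with TAT mainly in pair A. All 29 members measured were higher there, with a median of 0.77, against 14 members in pair B (median -0.02) and 18 in pair C (median 0.21). Over all genes 47.7%, 46.7% and 44.4% were higher in pairs A, B and C, also the background of later counts by pair. In all 3 pairs 10 of 29 (34.5%, all genes 13.2%) were higher and 0 (all genes 19.4%) were lower. Of the 29, 0 passed the limma test (6 at an unadjusted p under 0.05). The basement membrane chain COL4A2 read 3.22, 3.14 and 3.32 with TAT against 2.66, 2.09 and 2.31 with gp120 (mean 0.87, SE 0.16), with no overlap. Its partner chain COL4A1, which forms the same trimer, differed by only 0.47, 0.22 and 0.2. VCAN, the large proteoglycan versican, stood at 0.78, 1.1 and 1.12 against 0.27, -0.04 and -0.7 (mean 1.15, SE 0.26).

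Fibrillar collagens had their largest gap in pair A. COL5A2 differed by 1.22, 0.46 and 0.57 and COL12A1, which decorates fibrils, by 0.81, 0.29 and 0.53. COL1A2, the second chain of type I collagen, differed by 0.85, 0.05 and 0.43, and COL1A1, the first chain, by 0.64, -0.3 and 0.53. Fibronectin (FN1) read 0.77, 0.07 and 0.21, elastin (ELN) 0.27, 0.43 and 0.6 and the small proteoglycan decorin (DCN) 1.21, 0.36 and 0.22. LUM, another small proteoglycan, differed by 2.02, 0.32 and -0.69, so that without pair A its mean turned to -0.18. Matrix proteases and their inhibitors had medians of 0.65, -0.48 and -0.07. Of 18 members 3 (16.7%, all genes 13.2%) were higher and 2 (11.1%, all genes 19.4%) lower in all 3 pairs. Of the 6 fibroblast markers measured, COL1A1, COL1A2, DCN and LUM are matrix genes themselves, so their summed level restates these values. A longer fibroblast list that holds none of the matrix genes (10 measured) summed to 7.46, 7.35 and 7.18 with TAT. With gp120 it summed to 7.22, 7.68 and 7.29, so the groups overlap. This sum mostly restates 1 gene, S100A4, at 7.26, 7.15 and 6.96 with TAT and 7.09, 7.58 and 7.11 with gp120. The medians over the list were 0.56, 0.05 and -0.09, and its part in the matrix values was not tested.

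Notch and Wnt genes had the largest share on the TAT side among the 41 lists described. Of 24 members 11 (45.8%, all genes 13.2%) were higher and 3 (12.5%, all genes 19.4%) lower in all 3 pairs, with medians of 0.34, 0.03 and 0.37, and 0 passed the limma test (8 at an unadjusted p under 0.05). The receptor NOTCH3, known from mural cells, read 2.93, 4.67 and 3.75 with TAT and 2.37, 3.6 and 2.88 with gp120 (mean 0.83, SE 0.16), with groups that overlapped because letter B was brightest. The Notch ligand JAG1 differed by 0.73, 0.31 and 0.52. Of the repressors that Notch induces, HEY1 differed by 0.23, 1.05 and 0.77, HEY2 by 0.79, 0.08 and 0.32 and HEYL by 0.65, 0.08 and 0.67. HES1, another such repressor, differed by 0.49, -0.72 and 0.2, and the receptors NOTCH1 (-0.17, -0.12 and -0.01) and NOTCH2 (-0.2, -0.02 and -0.1) were slightly lower with TAT.

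On the Wnt side the secreted inhibitor DKK1 differed by 0.75, 0.53 and 1.19 (mean 0.82, SE 0.17), although 1 of its 3 probes carried that direction in all pairs. The coreceptor LRP6, which DKK1 binds, differed by 0.39, 0.88 and 1.05, on 1 of its 2 probes, and the receptor FZD4 by 0.36, 0.33 and 0.57. FZD2 (0.3, -0.8 and -0.73) and FZD8 (-0.15, -0.93 and -0.16) did not share that pattern. The probes of this list were AT-rich, with a median GC share of 35.8%. In the groups of 18.3% to 35.0% and of 36.7% to 38.3% GC, 18.9% and 16.4% of all genes were higher in all 3 pairs. Of 12 mural markers 5 (41.7%, all genes 13.2%) were higher and 0 (all genes 19.4%) lower in all 3 pairs, with medians of 0.5, 0.03 and 0.28 and 6 of 12 higher in pair B. NOTCH3 is counted in both lists. Among the 5 were MCAM, an adhesion molecule of pericytes (1.03, 0.78 and 0.32), and MYH11, smooth muscle myosin (0.44, 0.46 and 1.03, on 1 of its 2 probes). Summed over the mural list, TAT arrays stood at 7.74, 8.65 and 8.09 and gp120 arrays at 7.32, 8.8 and 7.74, so that TAT was the lower in pair B, and the part of these markers was not tested.

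**Figure D4:**
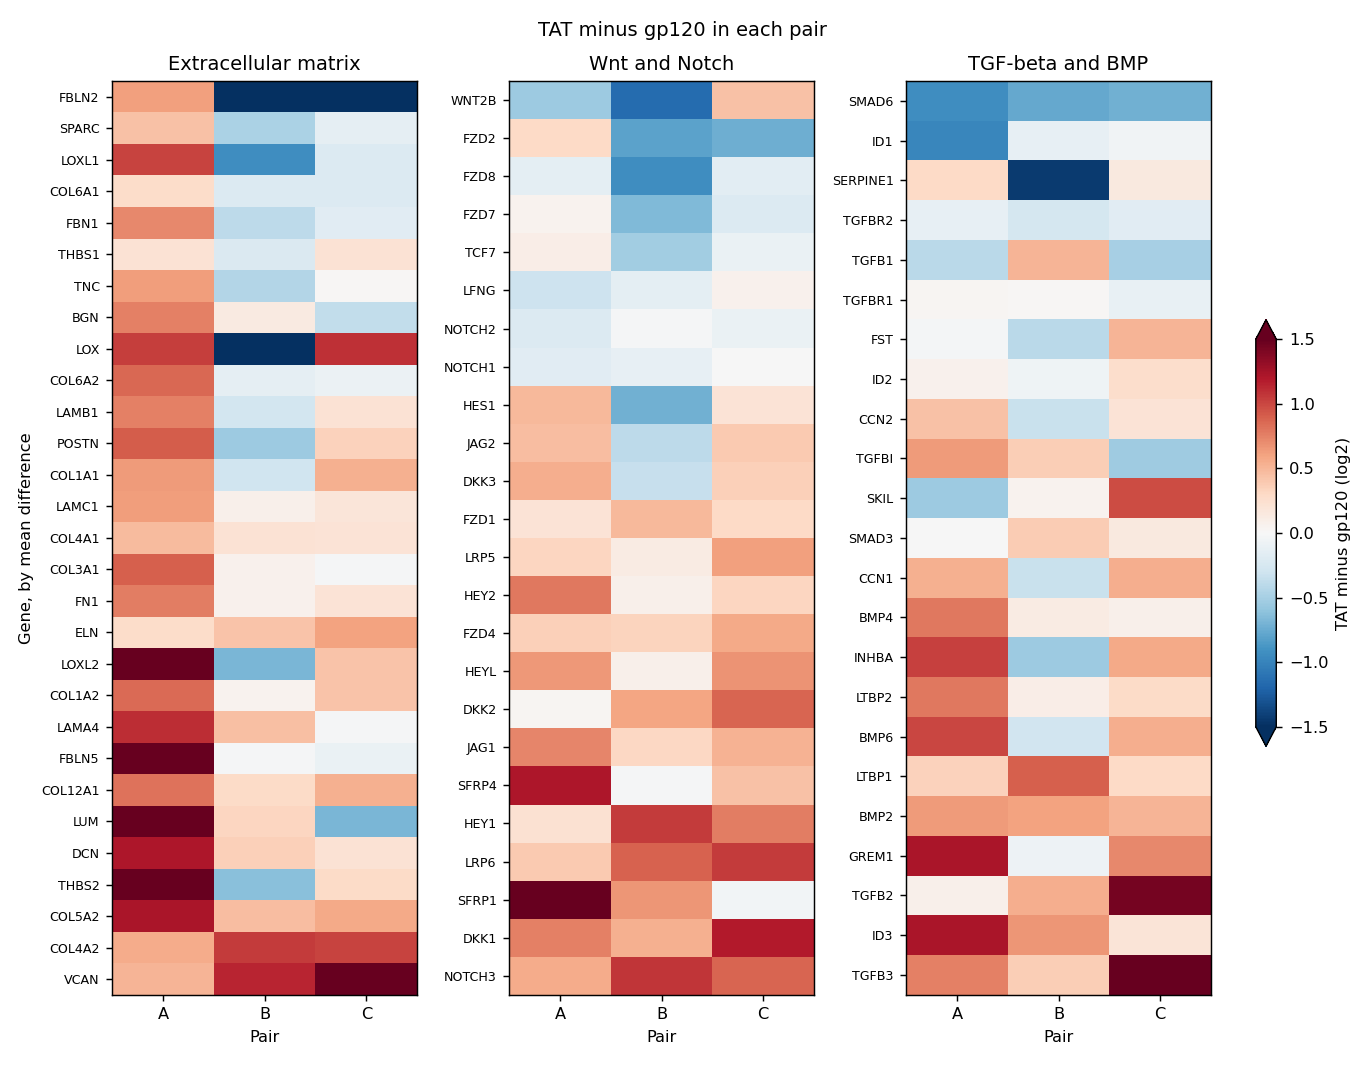
TAT minus gp120 (log2, colour, cut at 1.5 to either side) in pairs A, B and C for every measured member of the matrix (29), Wnt and Notch (24) and TGF-beta and BMP (23) lists, ordered by the mean difference. The matrix column of pair A is red throughout while B and C are mixed, and SMAD6, at -0.93, -0.77 and -0.72, is blue in each pair of the TGF-beta and BMP block.

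Growth factor lists held more members higher than lower in all 3 pairs, with medians that differed between pairs. In the TGF-beta and BMP list 7 of 23 (30.4%, all genes 13.2%) were higher and 3 (13.0%, all genes 19.4%) lower in all 3 pairs, with medians of 0.34, 0.02 and 0.26, and 0 passed the limma test (6 at an unadjusted p under 0.05). In pair B only 12 of the 23 were higher. BMP2, a ligand that drives bone and vascular cell fates, read -1.18, -0.18 and -0.99 with TAT and -1.82, -0.78 and -1.5 with gp120 (mean 0.58, SE 0.13). SMAD6, the inhibitor that BMP signalling induces, was lower with TAT, at -3.82, -4.12 and -4.65 against -2.89, -3.35 and -3.93 (mean -0.81, SE 0.14). The ligand TGFB3 differed by 0.76, 0.37 and 1.66, and its level itself ran from -1.02 on gp120 A to 3.97 on TAT B, a spread between letters far larger than between proteins. Among angiogenic and neurotrophic factors 6 of 19 (31.6%, all genes 13.2%) were higher and 0 (all genes 19.4%) lower in all 3 pairs. Of the 19, 0 were past the limma test and 6 at an unadjusted p under 0.05. Their medians were 0.49, 0.13 and -0.03, and 9 of the 19 were higher in pair C. Of 9 insulin-like growth factor genes 5, 4 and 5 were higher in pairs A, B and C. The keratinocyte growth factor FGF7 differed by 0.77, 0.71 and 0.42 (mean 0.63, SE 0.15), the vessel-stabilising ligand ANGPT1 by 0.25, 0.66 and 0.66, its antagonist ANGPT2 by 1.42, 0.34 and 0.32, pleiotrophin (PTN) by 1.63, 0.03 and 1.45 and VEGFA by 0.42, 0.13 and 0.09. IGFBP3, a carrier of insulin-like growth factors, was higher with TAT on all 5 of its probes, by 0.34, 1.13 and 0.73 on the brightest. In the authors' deposited value table the means of TGFB3, ANGPT1, VEGFA, MCAM and SDC2 turned negative.

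On the gp120 side the 12 named genes were GRK3, ABI1, CD1B, SMAD6, TNP1, TEX35, TLR8, TAF1, GPBP1L1, CEP85, RP2 and TPCN2. CD1B, which presents lipid antigens to T cells, read 0.34, 0.86 and 1.29 with TAT and 1.4, 1.59 and 2.08 with gp120 (mean -0.86, SE 0.14). Every gp120 array was above every TAT array, on a probe whose 2 companions went the same way. TLR8, an endosomal sensor of single-stranded RNA, lay at -0.75, -1.43 and -0.57 against -0.09, -0.42 and 0.26 (mean -0.83, SE 0.14), again without overlap. GRK3, a kinase that turns off G protein-coupled receptors, stood at -1.06, -1.51 and -0.5 against -0.26, -0.63 and 0.41 (mean -0.86), with groups that overlapped between letters although its 3 differences of -0.8, -0.88 and -0.91 had an SD of only 0.06.

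ABI1, an adaptor of actin remodelling, differed by -0.82, -1.13 and -0.78 on 1 probe. The lysosomal calcium channel TPCN2 differed by -0.58, -0.99 and -0.74 and RP2, a protein of ciliary trafficking named for a retinal dystrophy, by -0.59, -0.84 and -0.74, each with 2 of 3 probes in that direction. TAF1, the largest subunit of TFIID, differed by -0.63, -0.77 and -0.71 and was dim, with a mean level of -3.03. TNP1 and TEX35, known from testis, and CEP85, a centrosomal protein, were dim too, with mean levels of -4.26, -2.70 and -4.24. GPBP1L1 differed by -0.61, -0.92 and -0.8 on 1 of its 2 probes.

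Among the other genes at least 0.5 lower with TAT are 2 of leukocytes, picked out after their values were seen. ITGAD, an integrin chain of macrophages, read -2.73, -1.96 and -0.72 with TAT and -1.32, -0.14 and -0.16 with gp120 (mean -1.26, SE 0.25), in the same direction on both probes. NKG7, a granule protein of cytotoxic lymphocytes, was bright, at 4.44, 5.73 and 6.41 against 4.98, 6.3 and 7.11, and its differences of -0.53, -0.57 and -0.69 were small beside the gap between letters. NKG7 was also the brightest member of the T, B and NK cell list, of which 6 of 16 were measured, and CD3E, CD3G, MS4A1, GZMB and KLRB1 were above background on 0 arrays. Of the 6, 1 (16.7%, all genes 19.4%), NKG7, was lower in all 3 pairs. CD2, also 1 of 6 (16.7%, all genes 13.2%), was higher, by 0.45, 0.47 and 0.02. The interleukin 7 receptor IL7R, likewise picked out later, was higher with TAT by 0.67, 1.04 and 0.74.

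Microglia and macrophage markers did not move as a group. Of 20 measured, 4 (20.0%, all genes 19.4%) were lower and 0 (all genes 13.2%) higher in all 3 pairs, with medians of -0.18, 0.21 and -0.11. TREM2, a lipid receptor of microglia, read 2.45, 3.57 and 4.28 with TAT and 2.9, 3.94 and 4.64 with gp120 (mean -0.39, SE 0.13). The growth factor receptor CSF1R, by contrast, differed by -0.19, 0.88 and -0.26 and the scavenger receptor CD68 by -0.33, 0.63 and -0.49.

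Lysosomal genes lay lower with TAT by small amounts, mainly in pairs B and C. Of 39 measured, 14 (35.9%, all genes 19.4%) were lower in all 3 pairs and 1 (2.56%, all genes 13.2%) was higher. Medians were -0.05, -0.14 and -0.19 beside -0.02, -0.03 and -0.04 over all genes. Of the 39, 0 passed the limma test (4 at an unadjusted p under 0.05). In pair A 15 of the 39 were higher. The probes of this list had a median GC share of 45.0%, and in the group of 45.0% to 48.3% GC 24.9% of all genes were lower in all 3 pairs. The acid glucosidase GAA read 0.37, -0.62 and 0.39 with TAT and 0.57, 0.54 and 1.39 with gp120 (mean -0.79, SE 0.22), so its gap came mostly from pairs B and C. PSAP, the precursor of the sphingolipid activators, was bright, at 7.28, 6.27 and 7.23 against 7.55, 6.96 and 7.56 (mean -0.43, SE 0.15). The proton pump subunit ATP6V1H differed by -0.18, -0.88 and -0.62. TPP1, a lysosomal peptidase, went the other way in pairs B and C. CTSC, the dipeptidyl peptidase cathepsin C, was the 1 member higher in all 3 pairs (0.41, 0.07 and 0.19, on 1 of its 2 probes).

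Several immune and stress lists had opposite signs in different pairs. MHC class II genes, which present peptides to helper T cells, were lower with TAT in pairs A and C and higher in pair B. Medians were -0.96, -0.69 and 1.5 in pairs A, C and B, and 0 of 8 (all genes 32.6%) kept 1 direction throughout. The invariant chain CD74 read -0.47, 1.59 and 0.59 with TAT and 0.96, -1.57 and 1.14 with gp120, the lowest value being gp120 B. The class II chain BOLA-DRA differed by -0.95, 1.45 and -0.6. Cytokines and chemokines had medians of 0.56, -0.14 and 0.09. IL6 read 3.69, -2.74 and -0.47 against -0.1, -1.5 and -1.31, a difference of 3.79 in pair A and of -1.24 in pair B, and the monocyte chemokine CCL2 differed by 1.1, -0.93 and 0.4.

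A few inflammatory genes did keep 1 direction. The neutrophil chemokine CXCL8 read 5.03, 0.87 and 0.43 with TAT and 3.53, 0.42 and -0.21 with gp120 (mean 0.86, SE 0.23), on all 3 of its probes. IL1B stood at 4.2, 0.6 and 0.36 against 3.03, 0.08 and -0.08 (mean 0.71, SE 0.19), though on 2 of its 4 probes. For both, the letter A arrays were brighter than all others by more than the proteins differed. The interferon-induced chemokine CXCL10 was lower with TAT, by -0.15, -0.55 and -1.11, on 1 of 3 probes.

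Interferon-stimulated genes had medians of 0.27, -0.26 and -0.29, and 4 of 34 (11.8%, all genes 13.2%) were higher and 3 (8.82%, all genes 19.4%) lower in all 3 pairs. IFIT2, which binds viral RNA, read -1.19, -1.86 and -1.04 with TAT and -1.81, -2.83 and -2.31 with gp120 (mean 0.95, SE 0.17). RSAD2, the antiviral enzyme viperin, differed by 1.62, 0.55 and 0.47 and SAMD9, a restriction factor of poxviruses, by 0.25, 1.59 and 1.43, the latter on 1 of its 2 probes.

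Genes of DNA replication and mitosis were higher with TAT in 26 of 36 cases in pair A (median 0.27), in 1 of 36 in pair B (median -0.49) and in 16 of 36 in pair C (median -0.03). Over all genes 47.7%, 46.7% and 44.4% were higher in these pairs. The stress response of the endoplasmic reticulum had the same order of medians, 0.28, -0.49 and -0.03. Within letter B, gp120 B was the highest array for both lists, at a summed level of 7.22 beside 6.82 on TAT B and 6.91 on control B for the cell cycle, and at 9.74 beside 9.23 and 9.34 for the stress response.

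Surface partners reported for the 2 viral proteins varied without a common direction, 2 of 15 (13.3%, all genes 13.2%) being higher and 2 (13.3%, all genes 19.4%) lower in all 3 pairs. SDC2, a heparan sulfate proteoglycan, read 2.78, 3.83 and 2.96 with TAT and 1.92, 3.29 and 2.23 with gp120 (mean 0.71, SE 0.14), on both of its probes. The chemokine receptor CXCR4 differed by -0.41, 0.69 and -0.14 and CD4 by 0.23, -0.05 and -0.17. Of the elongation partners of TAT, the kinase CDK9 differed by -0.14, -0.04 and -0.09, and AFF4, a scaffold of the elongation complex, by 0.05, 1.18 and 1.62. Of 17 Müller glia and astrocyte genes measured, 4 (23.5%, all genes 19.4%) were lower and 1 (5.88%, all genes 13.2%) higher in all 3 pairs. Their medians were 0.14, -0.34 and -0.01. Among the 4, GLUL, the glutamine synthetase of Müller glia, was lower with TAT by -0.39, -0.14 and -0.33 (mean -0.29, SE 0.14), on 3 of its 5 probes. The glutamate transporter SLC1A3 was lower by -0.87, -0.16 and -0.19, on 1 of its 2 probes.

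Housekeeping lists varied around the shares over all genes (13.2% higher and 19.4% lower). Of 74 ribosomal protein genes 4 (5.41%) were higher and 13 (17.6%) lower in all 3 pairs, of 72 subunits of oxidative phosphorylation 13 (18.1%) and 11 (15.3%), and of 39 proteasome subunits 4 and 4. Splicing factors were lower in 11 of 39 cases (28.2%) and higher in 2, with medians of -0.04, -0.18 and -0.05. Glycolysis and hypoxia genes were higher in 7 of 26 cases (26.9%, all genes 13.2%) and lower in 0, but with medians of 0.24, 0.05 and -0.13, since 25 of 26 were higher in pair A and 10 in pair C. Among the 7 were PDK1, which gates pyruvate entry into mitochondria (0.42, 0.28 and 0.35), and the glycolytic enzyme ENO2 (0.45, 0.58 and 0.24).

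**Figure D5:**
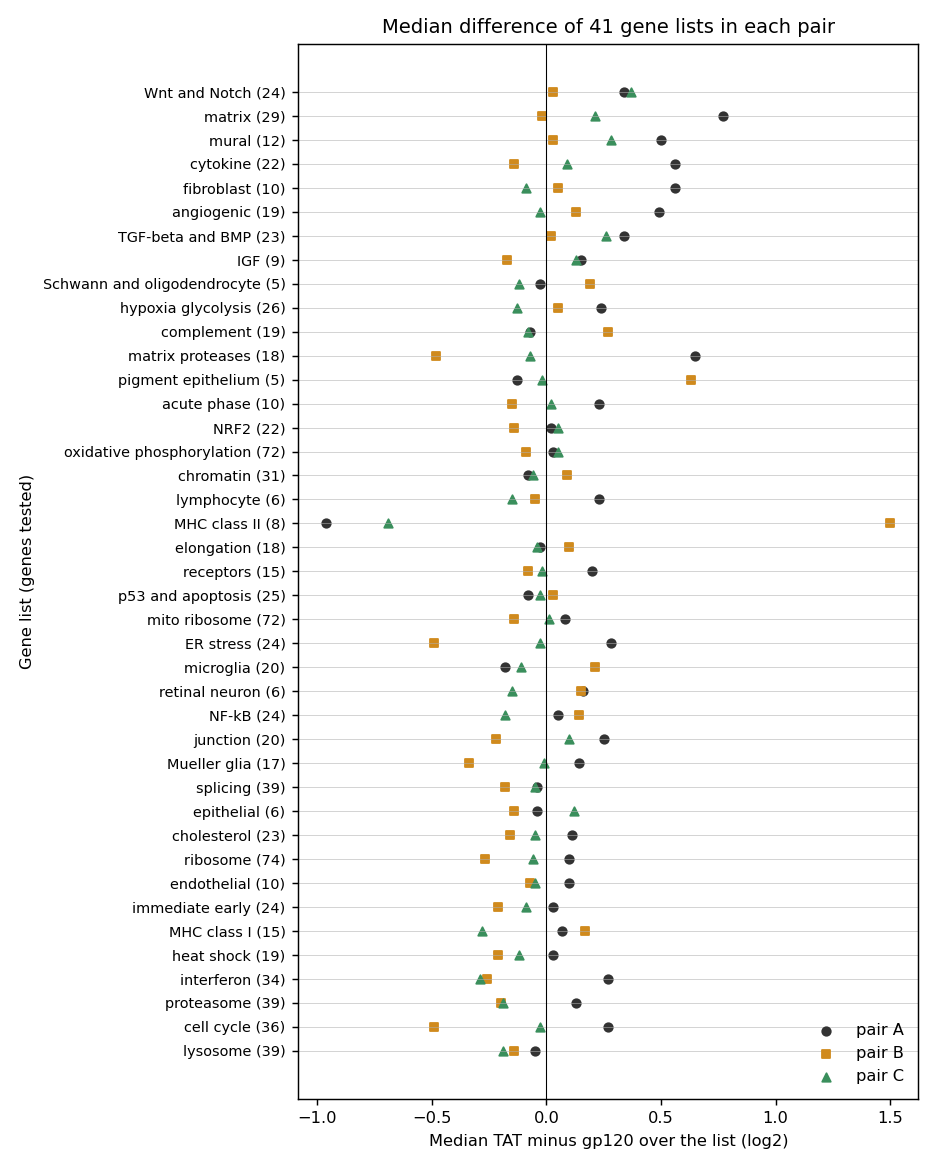
Median TAT minus gp120 (log2) over each of 41 gene lists, with pair A as circles, pair B as squares and pair C as triangles; the number of genes tested is in brackets and lists are ordered by the median of the mean differences. Wnt and Notch genes lie at 0.34, 0.03 and 0.37, lysosomal genes at -0.05, -0.14 and -0.19, and MHC class II genes at -0.96, 1.5 and -0.69.

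The controls lay between the proteins for some genes and not for others. Among the 60 genes at least 0.5 higher with TAT this held for 28 (46.7%, all genes 27.9%) in letter A and 33 (55.0%, all genes 36.4%) in letter B, and among the 33 lower genes for 16 and 19. These genes were chosen for a gap between the proteins on these same arrays. TAT above the control, gp120 below it, or both, thus hold by choice for each higher gene, and the reverse for each lower gene. Nothing is therefore read from these shares or from those that follow. For the 60 genes at least 0.5 higher with TAT, TAT A was above control A in 51 cases (85.0%, all genes 44.8%; median 0.65) and gp120 A was below it in 37 (61.7%, all genes 52.2%; median -0.18). In letter B, TAT B was above control B in 41 cases (68.3%, all genes 43.3%; median 0.24). There gp120 B was below it in 52 (86.7%, all genes 52.5%; median -0.64), on an array from the other scan and with control B in the other slide row. For the 33 lower genes, gp120 A was above control A in 28 cases (84.8%, all genes 47.8%; median 0.62) and TAT A below it in 21 (63.6%, all genes 55.2%; median -0.18), whereas in letter B gp120 B was above control B in 25 (75.8%, all genes 47.5%; median 0.42) and TAT B below it in 27 (81.8%, all genes 56.7%; median -0.24). ADAM12 shows both, with control A (-0.93) below gp120 A (-0.55) and control B (-0.79) between gp120 B (-1.55) and TAT B (-0.03). Both differences from a control use the same control array and are given only side by side, and letter C has no control.

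Other probes of the same genes were partly alike. For the 60 genes higher with TAT, 23 had further measured probes, and 19 of these 38 probes were higher in all 3 pairs, beside 1251 of 10421 such probes over all genes. For the 33 lower genes, 11 had further probes, and 10 of 16 were lower, beside 2700 of 10421. These probes were read on the same arrays, so they bear on the probe and not on the sample. Some were not separate from the chosen probe either. Both S100G probes had the same first 30 bases, and the CLDN1 and C25H16orf54 probes overlapped on the genome. The counts therefore include probes that are not independent. Where no count of probes is given for a gene, its other probes need not share the direction.

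Some genes were well above background on every array of 1 protein only. There were 44 such genes for TAT and 0 for gp120, beside 16884 genes with a named probe. Fewer spots were above background on gp120 B and gp120 C. The lowest signal well above background was higher on these arrays, at -4.6062 and -4.7534. It was -5.2735 on gp120 A and -5.1013, -5.7656 and -5.3193 on TAT A, B and C. The part of these limits in the count was not tested. The 44 genes were chosen for signal on the TAT arrays, so nothing is read from their direction. The bound sets the mean TAT level against the higher of each gp120 array's own signal and its lowest signal well above background. It was largest for ARNT2, a partner of hypoxia and dioxin receptors (1.72-fold), and DEFB124, a beta-defensin (1.66-fold). The bound concerns group means and not single pairs, since DEFB124 read -4.55 on TAT C and -4.65 on gp120 C. For 31 of the 44 genes the bound was over 1, and for 0 it reached a fold of 2.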

How the data were processed

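Per the file headers, the authors' intensity values come from Agilent Feature Extraction (version 11.5.1.1), run with the protocol GE1_1105_Oct12, which takes off background and a spatial trend; they are not scaled between arrays. A deposited value table gives 1 log2 value for each gene name, with its processing not given in the sources used here, and served as an alternative.

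Here log2 signals were reduced by each array's 75th percentile, control spots and 4 to 37 outlier spots on each array were dropped, and repeated spots averaged. Of 51282 probes, 29680 were named by accession, 5522 by symbol and 159 by synonym through the RefSeq gene table; 204 matched several genes and 15717 none, and these were not counted. Probes well above background on all 6 arrays (27510, of which 21414 named) gave 10993 genes, each read through its brightest probe. The 2 proteins were tested against each other in limma (version 3.58.1, R 4.3.3; functions lmFit and eBayes, letter as a block, two-sided, Benjamini-Hochberg over all genes, threshold 0.05); the fit was checked on simulated data. Counts of genes by direction have no test. Named genes are, per direction, the 12 with the largest smallest difference, up to 3 per list and a fixed set, apart from those said to be chosen later. The members and the 41 lists were chosen with earlier results of these data known.

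Whether letters pair arrays was decided before any fits were set side by side: deviations from the group means correlated at 0.713, 0.479 and 0.748 between same-letter arrays (A, B and C) and at -0.602 to 0.01 between different letters. The deviations within a group cancel out for each gene, so positive same-letter values pull the others down. The values between different letters are therefore no separate evidence. The number of arrays limits the precision. Figures used Python 3.11.15, pandas 2.3.3 and matplotlib 3.10.9.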

Additional observations from a re-analysis of the deposited data

How the results depend on the processing

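Differences rest on 3 pairs, and pairs B and C set arrays of different scans against each other. The count of 0 genes past the threshold was the same with no replicate block (0, with 269 genes at an unadjusted p under 0.05 in place of 1059), with all 8 arrays, with the scan beside the block, with an intensity trend, with both other filters, with normexp, median, quantile and loess scaling, with the mean over probes, with bright genes only and with the GC correction; the last 2 and loess were chosen after seeing the data. In the deposited value table it was 8, all lower with TAT. With 1 letter left out it ranged from 0 to 98, the 98 being without letter A. Genes higher in all pairs numbered 2240 in the deposited table, 663 among bright genes and 2347 to 2877 with 1 letter left out; lower genes 4414 with no filter, 1126 among bright genes and 2966 to 3857 with 1 letter left out. By at least 0.5, higher genes numbered 122 with no filter, 26 with normexp, whose offset of 50 compresses dim signals, 12 among bright genes, of which fewer were tested, and 145 to 469 with 1 letter left out; lower genes 248 with no filter, 3 with normexp, 136 in the deposited table, 4 among bright genes and 90 to 302 with 1 letter left out. Of the 60 and 33 genes, 56 and 31 kept their direction in all pairs with normexp but only 16 and 3 a difference of at least 0.5, and in the authors' values 49 and 32 kept the direction and 37 and 5 the size, so that most of the 136 lower genes there are different genes. The direction was kept by 57 and 32 with the mean over probes and by all with quantile, loess and median scaling.

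Among 73 single genes, 19 of 1198 values under the alternatives had the other sign, in 11 genes. In the deposited table TGFB3 stood at -0.35, SDC2 at -0.19, MCAM at -0.49, ANGPT1 at -0.45, VEGFA at -0.28 and BOLA-DRA at 0.04, and the cause was not tested. BOLA-DRA (main value -0.03) was also at 0.08 with normexp, at 0.02 with loess and from -0.78 to 0.42 with 1 letter left out (0.25 without letter C). With the scan beside the block, which leaves pair A alone, CD74 was at -1.43 and CXCR4 at -0.41. CXCR4 (main value 0.05) was at -0.05 as the mean over its probes and at -0.0 with the GC correction. With 1 letter left out LUM ran from -0.18 (without A) to 1.17, IL6 from -0.2 (without A) to 2.31, CCL2 from -0.26 (without A) to 0.75, CD74 from -0.99 (without B) to 1.3 and CXCR4 from -0.28 (without B) to 0.27. Without letter A, 7 of the 73 genes (EDIL3, RHOBTB3, ADAM12, ITGA8, ITGA1, VCAN and SAMD9) passed the limma threshold, with differences of 1.33 to 1.82. Of 369 list medians under the alternatives 14 moved by more than the spread between pairs.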
